A study of Sus scrofa with 10 samples.

Results

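The COP9 signalosome is a protein complex that cuts the ubiquitin-like protein NEDD8 off cullins, the scaffolds of the cullin-RING ubiquitin ligases. Attached NEDD8 activates these ligases, and its removal lets them exchange their substrate receptors. The CUL4 ligases, whose adaptor is DDB1, are among the ligases that the complex acts on. COPS5 is the catalytic subunit, a metalloprotease of the JAMM (MPN+) class, and COPS6 is its MPN partner without catalytic activity. GPS1, COPS2, COPS3, COPS4, COPS7A, COPS7B and COPS8 carry the PCI domain, with which scaffold subunits of the signalosome, the proteasome lid and the translation factor eIF3 pack against each other. COPS7A and COPS7B are paralogs that take the same position in alternative forms of the complex.

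All 9 genes named here were found among the 24358 genes listed. The name given in the table identified 7 of them. COPS4 (ENSSSCG00000009241) and COPS8 (ENSSSCG00000016323) were listed under their Ensembl identifier and were matched by it. The 9 genes had 23 annotated isoforms, of which 2 held no count in any library. Of the genes, 8 reached the mean of 1 FPKM (fragments per kilobase of transcript, scaled to the mapped fragments of the library) required for testing, and GPS1 did not.

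RNA came from pig (Sus scrofa) morulae, the cleavage stage at which blastomeres compact. Matured oocytes received an injected small interfering RNA (siRNA) and were activated parthenogenetically, that is without sperm, then grown in culture until they were morulae. The siRNA was directed against DDB1 in 5 libraries (DDB1_KD) and was a non-specific negative control in 5 (NC). Both groups thus carry an injected siRNA and only maternal genomes. The labels do not say how many embryos went into a library or if its embryos were cultured apart from those of the next, so p-values measure the spread between these libraries, which may be technical.

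Estimated counts totalled 32466912 to 50911295 per library, and the highest correlation between 2 libraries was 0.969, on log2(FPKM + 1). Genes of the mitochondrial chromosome held from 8.58% of counts in NC 1 to 24.4% in DDB1_KD 5. DDB1_KD 5 also had the fewest genes with counts, 13522. All 10 embryo markers checked had a mean of at least 1 FPKM, led by the trophectoderm keratin KRT18. The summed FPKM of a list of maternal oocyte transcripts ran from 9.42 to 117 in DDB1_KD and from 13.8 to 64.1 in NC, lowest in DDB1_KD 1. A cumulus cell list summed to 1.21 to 20.3 FPKM in DDB1_KD and 4.43 to 44.0 in NC, mostly from FST, while FSHR, INHA and AMH were listed at 0 in every library. A fibroblast list summed to at most 3.57 FPKM and a blood cell list to at most 11.4 FPKM in any library.

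DDB1 served as the check of the labels. Its level was 0.920, 1.30, 1.28, 1.30 and 1.55 FPKM in DDB1_KD 1 to 5, and 3.59, 3.12, 2.53, 3.15 and 4.44 FPKM in NC 1 to 5. Every DDB1_KD library lay below every NC library, with an exact permutation p of 0.00794 (two-sided, log2(FPKM + 1)), the smallest that 252 assignments allow. The fitted log2 fold change was -1.39 (SE 0.28) with adjusted p = 0.977 by the quasi-likelihood test of edgeR, Benjamini-Hochberg adjusted over 8476 genes, and adjusted p = 0.0069 by DESeq2.

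The subunit transcripts fell into a high and a low tier, and the tiers were the same in both groups. COPS6 had the highest mean over the 10 libraries, 63.2 ± 12.8 FPKM (SD, n = 10), and lay on chromosome 3 (8002698 to 8005643, plus strand; all positions are in susScr11). COPS2 followed at 46.4 ± 13.1 FPKM, then COPS4 at 38.1 ± 9.18, COPS5 at 34.3 ± 9.26, COPS8 at 32.4 ± 8.21 and COPS3 at 29.4 ± 9.24. Below these 6 genes came COPS7B at 5.62 ± 1.47 FPKM, COPS7A at 3.50 ± 1.12 FPKM and GPS1 at 0.718 ± 0.230 FPKM.

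Within the high tier the order was not firm. Neighbours there differed within a library by less than the SD of that difference, and 5 to 8 of 10 libraries kept each step of the order. The drop from COPS3 to COPS7B was present in 10 of 10 libraries, at 2.17 ± 0.63 on the log2(FPKM + 1) scale (mean ± SD of the within-library difference). COPS7B exceeded COPS7A in 9 of 10 libraries, by 0.57 ± 0.54 on that scale, and COPS7A exceeded GPS1 in 10 of 10, by 1.36 ± 0.38.

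These levels depend on the length by which counts are divided. Gene-level FPKM of COPS7A corresponds to a length of 3220 bases, whereas its isoforms, weighted by their counts, average 1915 bases, a ratio of 1.68. The ratio was 1.38 for COPS7B, 1.37 for COPS5, 1.27 for COPS4, 1.22 for GPS1, 1.21 for COPS3, and at most 1.01 for COPS2, COPS6 and COPS8. On summed isoform FPKM, a scale added after the data were seen, COPS4 (58.6 FPKM) and COPS5 (46.9) moved ahead of COPS2 (46.7). COPS7B (7.78), COPS7A (5.87) and GPS1 (0.886) were the lowest 3 on that scale as well, but COPS7B then exceeded COPS7A in 7 of 10 libraries, by less than the SD of the difference.

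**Figure D1:**
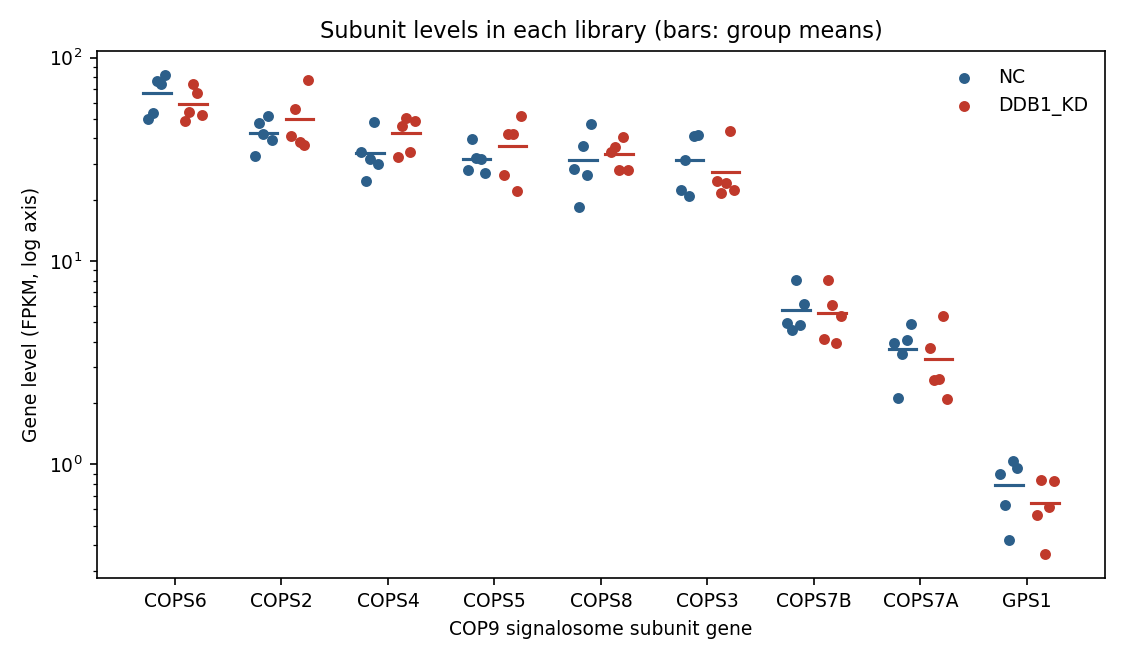
FPKM (log axis) of the 9 subunit genes, with 1 point per library, blue for the 5 NC and red for the 5 DDB1_KD libraries, and a bar at each group's mean. COPS6, COPS2, COPS4, COPS5, COPS8 and COPS3 sit above 18.4 FPKM in every library, COPS7B and COPS7A between 2.09 and 8.09, GPS1 at or below 1.04, and the groups overlap for every gene.

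No subunit gene passed the test between DDB1_KD and NC. By edgeR's quasi-likelihood test, 0 of 8476 genes (0% of those tested) had an adjusted p under 0.05, and 245 genes (2.89%) had an unadjusted p under 0.05, with 0 of the 8 tested subunits among them. DESeq2 called 2 genes, DDB1 and YAP1 (0.0236%), and limma called 0. The fitted change was higher in DDB1_KD for 4 subunits and lower for 4, against 50% higher over all genes tested. Their median log2 fold change was 0.04, beside 0.00 over all genes, and their median absolute log2 fold change was 0.20, beside 0.23. For each of the 9 genes the groups overlapped in FPKM; 35 of 8476 genes (0.413%) had groups without overlap.

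The catalytic subunit COPS5 (ENSSSCG00000006203) is annotated at chromosome 4, 67738939 to 67758098, plus strand. In the DDB1_KD libraries 1 to 5 it measured 26.5, 42.3, 42.0, 22.0 and 51.7 FPKM, and in NC 1 to 5 it measured 28.1, 39.9, 32.2, 31.6 and 27.2 FPKM. DDB1_KD 4 held the lowest and DDB1_KD 5 the highest value of all 10, so the NC values lay inside the DDB1_KD range. The log2 fold change was 0.24 (SE 0.27), with a 95% interval from -0.35 to 0.82 (edgeR adjusted p = 0.977). It was 0.058 (SE 0.26) without DDB1_KD 5 and 0.40 (SE 0.23) without DDB1_KD 4.

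COPS6 (ENSSSCG00000034893), the MPN partner of COPS5, measured 49.0, 53.8, 74.3, 66.7 and 52.5 FPKM in DDB1_KD 1 to 5. Its NC values were 50.1, 53.3, 76.8, 73.8 and 82.3 FPKM. DDB1_KD had 4 of 5 libraries below the NC mean, and both groups reached down to about the same level. The log2 fold change was -0.17 (SE 0.20; 95% interval -0.61 to 0.27; edgeR adjusted p = 0.977), and ran from -0.28 without DDB1_KD 3 to -0.10 without DDB1_KD 1.

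The ratio of COPS5 to COPS6 FPKM ran from 0.329 to 0.986 in DDB1_KD and from 0.330 to 0.748 in NC, with means of 0.641 ± 0.252 and 0.498 ± 0.163 (SD, n = 5 each). The order of the pair was thus COPS6 over COPS5 in all 10 libraries on gene-level FPKM. On summed isoform FPKM the ratio reached 1.34 in DDB1_KD and 1.03 in NC.

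Among the PCI subunits, COPS2 (ENSSSCG00000004652, chromosome 1, 122542409 to 122575007, plus strand) is one that contacts the cullin and its RING partner. It measured 41.1, 56.0, 38.2, 36.9 and 77.8 FPKM in DDB1_KD 1 to 5, and 32.8, 47.6, 42.3, 51.8 and 39.3 FPKM in NC 1 to 5. DDB1_KD 5 stood highest, and 3 of the 5 DDB1_KD libraries were below the NC mean of 42.8 FPKM. Its log2 fold change of 0.24 (SE 0.25; 95% interval -0.31 to 0.79; edgeR adjusted p = 0.977) became -0.0062 (SE 0.21) without DDB1_KD 5.

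COPS4 (chromosome 8, 135278842 to 135315003, minus strand), which takes part in switching COPS5 on when a substrate binds, had the smallest unadjusted p of the subunits, 0.163 by edgeR. Its values were 32.6, 46.1, 50.2, 34.4 and 48.7 FPKM in DDB1_KD 1 to 5. In NC 1 to 5 they were 34.4, 24.8, 31.9, 47.9 and 30.1 FPKM. DDB1_KD exceeded the NC mean in 4 of 5 libraries, while NC 4 reached the level of the high DDB1_KD libraries. The log2 fold change was 0.34 (SE 0.23; 95% interval -0.16 to 0.84; edgeR adjusted p = 0.977), and 0.54 (SE 0.22) without NC 4, which also left it unpassed.

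COPS3 (ENSSSCG00000018051; chromosome 12, 60993460 to 61023903, plus strand), another PCI scaffold subunit, measured 24.7, 21.5, 24.3, 43.3 and 22.4 FPKM in DDB1_KD 1 to 5. The NC libraries held 22.4, 31.2, 20.9, 41.1 and 41.8 FPKM. DDB1_KD 4 stood apart from the other 4 DDB1_KD libraries, which spanned only 21.5 to 24.7 FPKM, and NC fell into 3 lower and 2 higher libraries. The log2 fold change was -0.22 (SE 0.26; 95% interval -0.79 to 0.35; edgeR adjusted p = 0.977), with -0.39 (SE 0.26) without DDB1_KD 4 and -0.075 (SE 0.27) without NC 4.

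COPS8 (chromosome 15, 136828217 to 136838068, plus strand), a small PCI subunit, measured 34.1, 36.3, 28.02, 40.8 and 27.9 FPKM in DDB1_KD 1 to 5. Its NC values, 28.3, 18.4, 36.8, 26.4 and 46.9 FPKM, spread more widely and enclosed the DDB1_KD range. The log2 fold change was 0.11 (SE 0.22; 95% interval -0.38 to 0.59; edgeR adjusted p = 0.977), with -0.0066 (SE 0.21) without NC 2 and 0.27 (SE 0.22) without NC 5.

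GPS1 (ENSSSCG00000033689; chromosome 12, 948989 to 959232, minus strand), a PCI scaffold subunit, had 99 to 363 estimated counts per library and fell below the level required for testing. Its FPKM was 0.567, 0.842, 0.363, 0.618 and 0.829 in DDB1_KD 1 to 5, and 0.900, 0.633, 0.425, 1.04 and 0.964 in NC 1 to 5. The lowest values of both groups were in libraries numbered 3. On log2 CPM the means were 2.12 ± 0.47 and 2.40 ± 0.54 (SD, n = 5 each), a difference of -0.28 with an exact two-sided permutation p of 0.389. The difference was -0.11 without DDB1_KD 3 and -0.49 without NC 3. With no filter on low values, edgeR gave a log2 fold change of -0.31 (SE 0.40, adjusted p = 0.967).

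Genes annotated on the opposite strand overlap several of these loci, and the sources used here do not say if reads were counted by strand. GPS1 overlaps DUS1L and RFNG, COPS3 overlaps NT5M, COPS4 overlaps PLAC8, COPS6 overlaps MCM7, COPS7A overlaps MLF2 and COPS7B overlaps PDE6D. Without strand, reads in a stretch shared by a subunit and its partner may not be separable. The overlaps are of whole gene spans, and shared exons were not checked. On the same strand, COPS3 overlaps FLCN and COPS7A overlaps ENSSSCG00000035504, and strand would not separate these. COPS2, COPS5 and COPS8 overlap no listed gene. The highest count of an overlapping gene in any library was 8757 at COPS6, 6575 at COPS3, 4128 at COPS7A and 777 at GPS1. The highest counts of these subunits were lower, at 4667, 3933, 784 and 363. At COPS7B and COPS4 the overlapping genes reached only 370 and 91 counts. COPS7A enters the COPS7B share and the correlation with COPS5 given below.

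**Figure D2:**
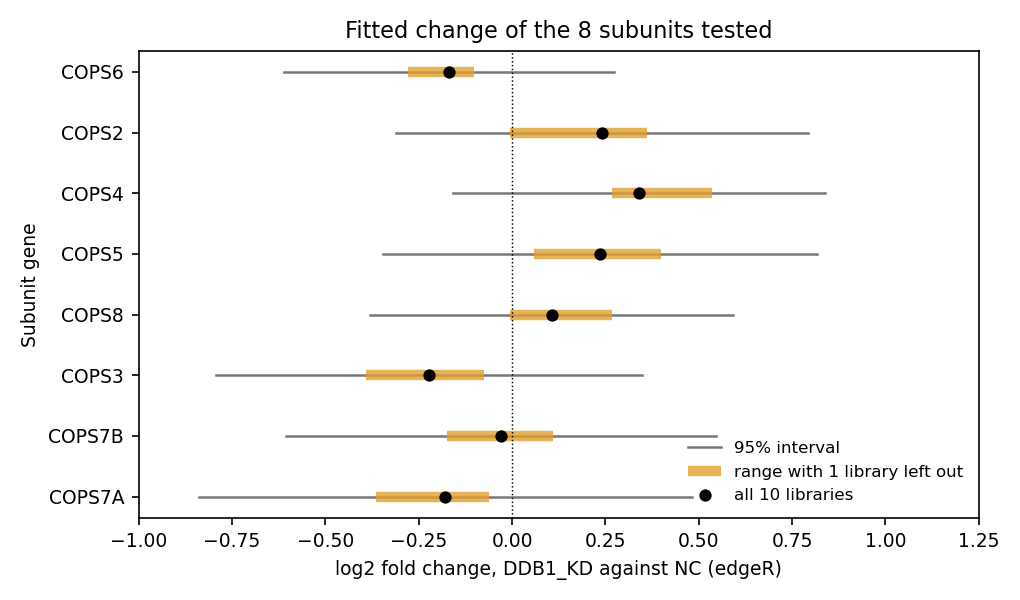
Fitted log2 fold change (DDB1_KD against NC, edgeR) of the 8 tested subunits as a black point, with its 95% interval as a grey line and the range when 1 library at a time is left out as a yellow band. Every interval includes 0, and the yellow band crosses 0 for COPS2, COPS7B and COPS8.

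The alternative subunits COPS7A and COPS7B were both transcribed in every library. COPS7A (ENSSSCG00000000691; chromosome 5, 63957064 to 63977556, minus strand) measured 3.73, 2.61, 2.63, 5.37 and 2.09 FPKM in DDB1_KD 1 to 5, and 3.93, 2.13, 3.51, 4.08 and 4.87 FPKM in NC 1 to 5. It was above the NC mean in 2 of 5 DDB1_KD libraries, and its fitted log2 fold change was -0.18 (SE 0.30; 95% interval -0.84 to 0.48; edgeR adjusted p = 0.977). That value was -0.36 without DDB1_KD 4 and -0.063 without DDB1_KD 5. COPS7B (ENSSSCG00000033334; chromosome 15, 132426790 to 132451196, plus strand) measured 4.11, 8.09, 6.10, 3.96 and 5.38 FPKM in DDB1_KD, and 4.96, 4.59, 8.02, 4.87 and 6.17 FPKM in NC. Its log2 fold change was -0.03 (SE 0.27; 95% interval -0.61 to 0.55; edgeR adjusted p = 0.989), and its direction changed without DDB1_KD 1, DDB1_KD 4 or NC 3.

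COPS7B made up 52.4, 75.6, 69.8, 42.4 and 72.0% of the summed COPS7A and COPS7B FPKM in DDB1_KD 1 to 5. The NC shares were 55.8, 68.4, 69.6, 54.4 and 55.9%. On this gene-level scale COPS7A was the higher of the pair in DDB1_KD 4 alone. On summed isoform FPKM it was the higher in DDB1_KD 1, DDB1_KD 4 and NC 4, where COPS7B made up 47.0, 37.8 and 49.5%. The group means were 62.5 ± 14.3% and 60.8 ± 7.5% (SD, n = 5 each), 1.67 percentage points apart with an exact two-sided permutation p of 0.786. The groups overlapped, and the spread between libraries exceeded the difference between groups.

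The summed FPKM of the 9 genes was 259 ± 26.8 in the DDB1_KD libraries and 249 ± 34.1 in the NC libraries (SD, n = 5 each), with ranges of 216 to 289 and 206 to 283. COPS6 took 23.0 ± 4.09% of the sum in DDB1_KD and 26.8 ± 2.94% in NC, COPS4 took 16.3 ± 2.06% and 13.6 ± 3.0%, and the groups overlapped in the share of each of the 9 genes. On gene-level FPKM, COPS6 had the largest share in 8 of 10 libraries, and COPS2 had it in DDB1_KD 2 and DDB1_KD 5, at 20.9% and 26.9% of the sum. On summed isoform FPKM, COPS6 led in DDB1_KD 1 and 4 and NC 1, 3 and 5, COPS4 in DDB1_KD 2 and 3 and NC 4, COPS5 in NC 2 and COPS2 in DDB1_KD 5.

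The balance among subunits was described over libraries by the 36 pairs of subunit genes. Pearson correlations of log2 CPM over the 10 libraries were positive for 19 pairs and negative for 17, with a median r of 0.07. An unadjusted permutation p under 0.05 was found for 3 pairs by r. After Benjamini-Hochberg adjustment over the 36 pairs, 1 passed by r and 0 by Spearman's rho. COPS5 and COPS6, the MPN pair, had r = -0.014 and rho = 0.14 (permutation adjusted p = 0.976 for r).

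COPS5 and COPS7A had the lowest r of the 36. In log2 CPM, COPS5 was 6.33, 6.88, 7.03, 5.86 and 7.35 in DDB1_KD 1 to 5, where COPS7A was 3.72, 3.09, 3.26, 4.04 and 2.95. In NC 1 to 5, COPS5 was 6.35, 6.94, 6.52, 6.61 and 6.22, and COPS7A was 3.73, 2.93, 3.54, 3.87 and 3.96. The 4 libraries with the most COPS5 (DDB1_KD 2, 3 and 5 and NC 2) were the 4 with the least COPS7A. Pearson's r was -0.90 (permutation p = 0.00051, adjusted 0.0184) and Spearman's rho was -0.85 (permutation p = 0.00304, adjusted 0.109).

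The relation held its size but not its call when libraries were removed. With each group's mean subtracted r was -0.89 (permutation adjusted p = 0.0209), and without DDB1_KD 4 and DDB1_KD 5, the 2 libraries farthest from the median of COPS5, it was -0.86 (adjusted p = 0.394). Leaving out 1 library at a time gave r from -0.94 to -0.87. The adjusted p rose above 0.05 without DDB1_KD 4 (0.111), DDB1_KD 5 (0.0860), NC 3 (0.0626) or NC 5 (0.0536). Of the 8475 other genes tested, 60 (0.708%, COPS7A included) had an r with COPS5 at least as negative, and 17 (0.201%, COPS5 included) had one with COPS7A.

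COPS2 with COPS5 gave the highest r of the 36, 0.80 (rho 0.66), with permutation adjusted p = 0.0776 for r and 0.581 for rho. It passed without DDB1_KD 3 (r = 0.91, permutation adjusted p = 0.0131), and was lowest without DDB1_KD 5 (r = 0.68, permutation adjusted p = 0.652). Without DDB1_KD 5 and NC 4, the libraries farthest from the median of COPS2, r was 0.75 (permutation adjusted p = 0.398). DDB1_KD 5, highest in both genes, had the largest mitochondrial share of counts (24.4%), and NC 1, lowest in COPS2, the smallest (8.58%). COPS5 was lowest in DDB1_KD 4, where that share was 12.2%. The part of the mitochondrial share in this correlation was not tested. COPS7A and COPS7B had r = -0.46 and rho = -0.39 (permutation adjusted p = 0.585 for r).

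**Figure D3:**
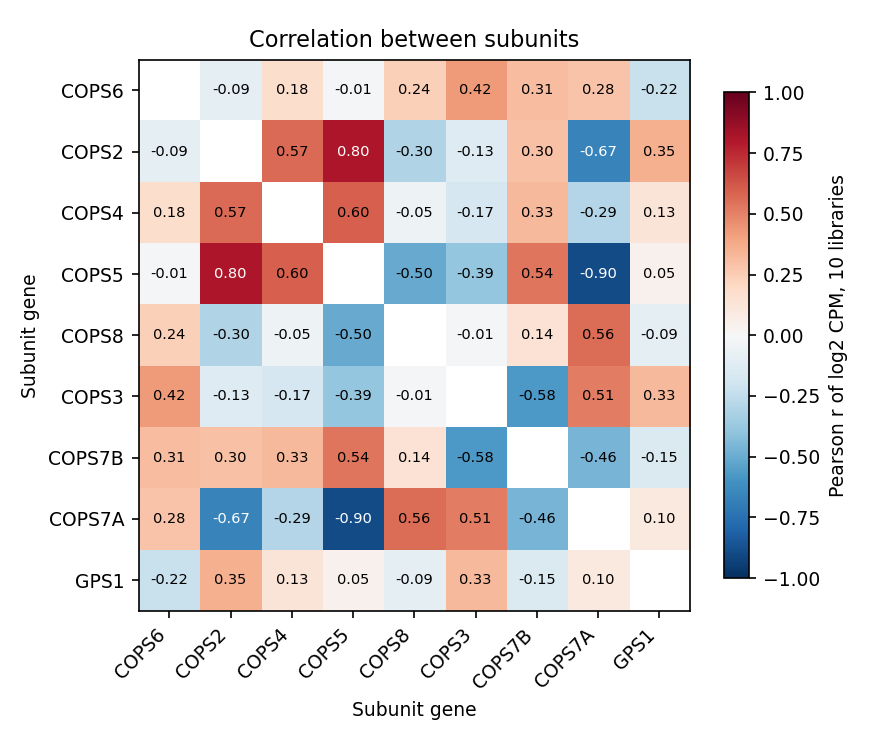
Pearson r of log2 CPM over the 10 libraries for each pair of the 9 subunit genes, red for positive and blue for negative, with the value in each cell. The COPS5 and COPS7A cell is lowest at -0.90, COPS2 and COPS5 is highest at 0.80, and the COPS5 and COPS6 cell is near 0.

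The level of maternal oocyte transcripts was set beside these values, and no relation passed adjustment. Measured as the mean log2 CPM of 8 genes (ZP2, ZP3, ZP4, GDF9, BMP15, OOEP, NPM2 and MOS), it was 0.39, 3.73, 3.94, 2.14 and 3.80 in DDB1_KD 1 to 5 and 1.72, 2.39, 3.34, 1.38 and 1.53 in NC 1 to 5. Its r was 0.66 with COPS5, -0.69 with COPS7A and 0.67 with COPS7B (rho 0.71, -0.64 and 0.62; unadjusted permutation p for r 0.0379, 0.0348 and 0.0349). With the COPS7B share, which joined this family of 11 relations after its values had been seen, r was 0.79 (permutation p = 0.0108) and rho was 0.82 (permutation p = 0.00563). None of the 11 passed Benjamini-Hochberg adjustment, the lowest being 0.104 for r and 0.0619 for rho. Without DDB1_KD 1 and DDB1_KD 3, the libraries farthest from the median maternal level, r was 0.63, -0.74, 0.60 and 0.79 for COPS5, COPS7A, COPS7B and the COPS7B share. The part of the maternal transcripts in the relation between COPS5 and COPS7A was not tested. Of the 12 maternal oocyte genes listed, 11 were matched and 8 had a mean of at least 1 FPKM. NLRP5 was not matched, and ZAR1, FIGLA and NOBOX were not in the mean used here. In bulk RNA, fewer cells of a kind and less RNA per cell cannot be told apart.

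**Figure D4:**
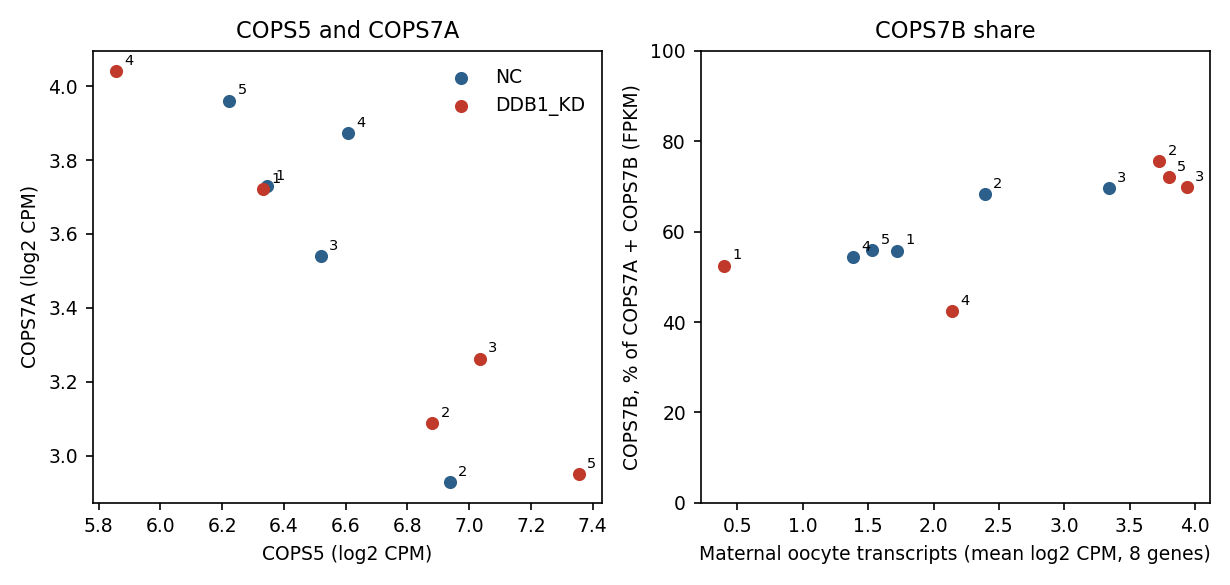
Left, log2 CPM of COPS7A against log2 CPM of COPS5, and right, the COPS7B share (percent of COPS7A plus COPS7B FPKM) against the mean log2 CPM of 8 maternal oocyte transcripts, with 1 numbered point per library, blue for NC and red for DDB1_KD. Over all 10 libraries COPS7A is lower where COPS5 is higher (r = -0.90), although NC 4 exceeds NC 1 and NC 3 in both genes, and DDB1_KD 4 has the lowest COPS7B share, 42.4%.

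Isoforms of the subunits gave no call either. Of the 23 isoforms, 12 were tested, and none had an adjusted or unadjusted p under 0.05 by edgeR. Of all 11250 isoforms tested, 1 passed (0.00889%) and 378 had an unadjusted p under 0.05 (3.36%). The isoform that passed belongs to RARS2 and was named after its value was seen. COPS6 and COPS8 have 1 annotated isoform each, COPS3 had all its counts in 1 of 2, and COPS5 had 95.6 to 100% of its counts in the 2036-base isoform.

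COPS4 counts were divided among isoforms of 3959, 1568 and 1447 bases, and the division varied from library to library. The 3959-base isoform (ENSSSCT00000065810) held 100, 77.9, 35.9, 75.3 and 66.6% of COPS4 counts in DDB1_KD 1 to 5 and 100, 68.9, 25.7, 49.1 and 78.9% in NC 1 to 5. The group means were 71.1 ± 23.2% and 64.5 ± 28.4% (SD, n = 5 each), closer to each other than the libraries of either group. The 1568-base isoform (ENSSSCT00000010121) was listed at 0 in DDB1_KD 1, DDB1_KD 2 and NC 1 and held 64.1% in DDB1_KD 3 and 74.3% in NC 3. Its log2 fold change was 0.17 with an SE of 2.01, and that of the 3959-base isoform was 0.45 (SE 0.35; edgeR adjusted p = 0.9997 for both). The latter was 0.22 without NC 3 and 0.68 without NC 1.

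COPS2 divided its counts between a pair of isoforms. The 3674-base isoform (ENSSSCT00000005137) held 60.9 to 70.3% of counts in the 5 DDB1_KD libraries but 42.0 to 99.8% in NC, with NC 3 at 99.8% and NC 5 at 42.0%. The 3702-base isoform (ENSSSCT00000049645) made up the rest, with a log2 fold change of 0.53 (SE 0.90), which was 0.18 (SE 0.37) without NC 3, 0.27 without DDB1_KD 5 and 0.80 without NC 5. The same isoform gave 0.98 and 1.49 with limma (pseudocounts 1 and 0.1) and 1.03 with the replicate number as a block, and none of these passed. For COPS7B, the 2504-base isoform (ENSSSCT00000056172) held 40.8 to 100% of counts in DDB1_KD and 24.9 to 100% in NC. The 2600-base isoform (ENSSSCT00000055931) held 0 to 58.7% and 0 to 65.4%, with an SE of 2.03 on its log2 fold change of -0.23. COPS7A had 64.9 to 100% of its counts in the 1911-base isoform (ENSSSCT00000027368). GPS1, not tested, held 76.0% of its counts over all libraries in a 5622-base isoform (ENSSSCT00000048625) and 22.5% in a 4739-base isoform (ENSSSCT00000039021). By library, the 5622-base isoform held 40.8 to 100% in DDB1_KD and 40.2 to 97.3% in NC. The 4739-base isoform was the larger of these in DDB1_KD 1 (43.2%) and NC 4 (59.8%).

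**Figure D5:**
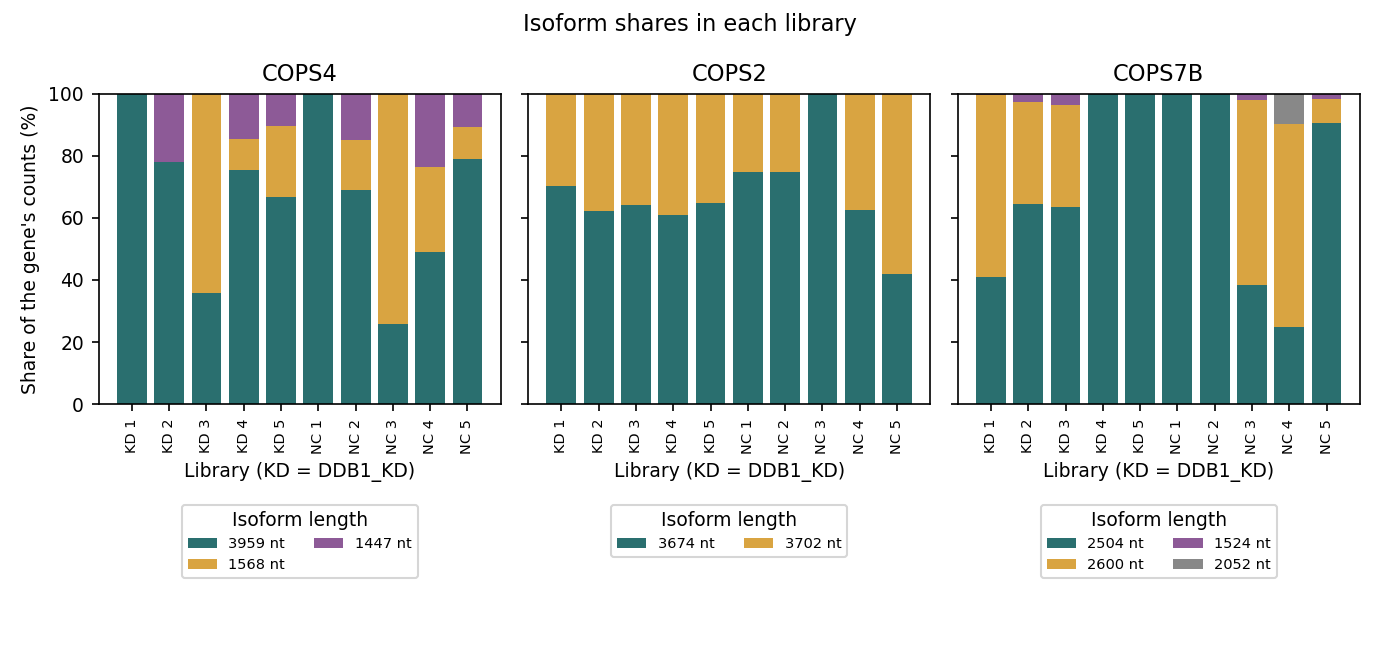
Share of each gene's estimated counts (percent) assigned to each isoform of COPS4, COPS2 and COPS7B, with 1 stacked bar per library and isoforms named by their length in nucleotides (nt). The COPS4 and COPS7B divisions differ from library to library within both groups, and the 3674-nt isoform of COPS2 ranges from 60.9 to 70.3% in DDB1_KD and 42.0 to 99.8% in NC.

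The partners and targets of the complex were read from the same fit, and no gene of these 6 lists had an unadjusted edgeR p under 0.05. Among proteins that bind the complex or compete with it, 4 of 5 were tested (CAND2 was not), 2 higher and 2 lower. COPS9, the small additional subunit of the complex, measured 868 ± 182 FPKM in the DDB1_KD libraries and 956 ± 152 FPKM in the NC libraries (SD, n = 5 each), above each of the 9 genes described here. ITPK1, an inositol phosphate kinase that associates with the complex, was at -0.75 (SE 0.73) on the log2 scale, and USP15, a deubiquitinase that does so too, at 0.24 (SE 0.30).

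Of 11 genes that attach NEDD8 to cullins or process it, 10 were tested (DCUN1D2 was not), 8 higher and 2 lower, with a median log2 fold change of 0.22 beside 0.00 over all genes. UBA3, the catalytic subunit of the NEDD8-activating enzyme, was at 0.38 (SE 0.27), and UBE2M, the main NEDD8-conjugating enzyme, was at -0.41 (SE 0.28; edgeR adjusted p = 0.977 for both). Of 13 cullin ligase core genes, 11 were tested (CUL7 and CUL9 were not), 7 higher and 4 lower, with a median of 0.05. CUL4B, a scaffold of DDB1-containing ligases, was at -0.42 (SE 0.30), and ELOB, an adaptor of CUL2 and CUL5 ligases, at -0.19 (SE 0.22).

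The related PCI and MPN complexes were also without a call. All 9 proteasome lid genes were tested, 8 higher and 1 lower, with a median log2 fold change of 0.09. PSMD11, a PCI subunit of the lid, was at 0.21 (SE 0.20), and PSMD14, the lid's JAMM deubiquitinase, at 0.20 (SE 0.21). Of 8 PCI and MPN genes of eIF3, 7 were tested (EIF3C was not matched), 5 higher and 2 lower, with a median of 0.14. EIF3H and EIF3E were at 0.41 (SE 0.23) and 0.35 (SE 0.21). Of 6 other JAMM proteins, 5 were tested (STAMBPL1 was not), 3 higher and 2 lower, with BRCC3 at 0.22 (SE 0.21) and the histone deubiquitinase MYSM1 at 0.34 (SE 0.34).

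The mean of the subunits' centred log2 CPM was highest in NC 4 (0.27), DDB1_KD 5 (0.18) and NC 5 (0.13) and lowest in NC 2 (-0.17) and NC 1 (-0.14), so the extremes on both sides included NC libraries. The 5 other tested genes most like this mean over the 10 libraries were SELRC1 (r = 0.93), SEC24B (0.93), PPAT (0.89), GDAP2 (0.87) and ZFP82 (0.87). These are given as a description, since the genes were picked for their r from all genes tested.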

How the data were processed

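The series holds 10 RNA-seq libraries of pig morulae, 5 DDB1_KD and 5 NC, grouped by title. The deposited tables give FPKM and estimated counts for 24358 genes and 47421 isoforms, per the file headers. The submitters' processing notes name HISAT2, StringTie, edgeR, fastp, HOMER, ChIPseeker and the build susScr11, without roles. Deposited isoform counts equalled FPKM times length times a constant for 100% of counts within 1.5 counts plus 0.5%, so they may derive from coverage, and their sampling error may not be that of read counts. The deposited FPKM is 0.0001 where the count is 0.

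Genes and isoforms averaging 1 FPKM or more over the libraries were tested (8476 and 11250) with edgeR 4.0.16 (glmQLFit and glmQLFTest, TMM, R 4.3.3) on the counts, which are whole, with Benjamini-Hochberg adjustment at 0.05. DESeq2 1.42.0 and limma 3.58.1 on log2(FPKM + 1) were alternatives. Log2 CPM used TMM scaling and a prior count of 2. Permutation tests of group differences enumerated all assignments, and those of correlations drew 100000 resamples (SciPy 1.17.1). The spread between libraries, as the square root of edgeR's common dispersion, was 47.6% for genes and 101% for isoforms. It may be technical. On simulated data, edgeR found 14% of the genes given a log2 fold of 1 and 86% of those given 2, with 4 false calls. For isoforms it found 0% and 16%, with 1 false call. The simulation changed 50 features at each log2 fold from 1 to 4 together. Adjusted p depends on how many features change, so recovery may be lower in these data, where edgeR called 0 genes and 1 isoform.

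Members, lists and tests were chosen with earlier results of these data known. Every member is named whatever its p, with isoforms holding at least 20% of its counts, the 2 genes of smallest p in each list, COPS9, the pairs of subunits named above, and the 5 genes most like the subunits' mean. Sequences were not used here.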

Additional observations from a re-analysis of the deposited data

Results flagged for a closer look

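COPS3 in DDB1_KD 4, at 43.3 FPKM, lay far from the other 4 libraries of its group. Its gap to the nearest of them was 0.850 of the group's whole range, above Dixon's 95% critical value of 0.71 for 5 samples. Of 24 groups of values examined this way 1 was picked out, and chance picks about 1 in 20. The same library had the lowest COPS5 and the highest COPS7A level of the 10.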

How the results depend on the processing

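The gene comparison gave 0 calls under every alternative run except DESeq2, with 2. The isoform comparison gave 1 call in all libraries, 0 with no filter, 0 at a mean FPKM of at least 5, 68 with DESeq2, 2 with limma on log2(FPKM + 0.1), 0 with the replicate block, and 0 to 2 with a library left out. The cause was not tested.

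Of 151 refitted subunit fold changes, 146 kept their direction and none passed (adjusted p at least 0.495). The 5 that reversed came from leaving out libraries, which gave log2 ranges of -0.0062 to 0.36 for COPS2, -0.17 to 0.11 for COPS7B and -0.0066 to 0.27 for COPS8. At least 5 FPKM leaves COPS7A untested, so the count of subunits higher, 3 to 5 with a library left out, could not be had there. The COPS7B share difference ran from -1.61 to 6.68 points.

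Isoforms reversed more. The COPS4 isoform ENSSSCT00000010121 gave -0.62 and -1.26 with limma (pseudocounts 1 and 0.1), -1.08 with the replicate block and -1.19 to 0.90 with a library left out. The COPS7B isoform ENSSSCT00000055931 gave 0.032 and 0.14 with limma and -0.55 to 0.58. Leaving out libraries gave -0.21 to 0.062 for COPS7A ENSSSCT00000027368, -0.15 to 0.27 for COPS7B ENSSSCT00000056172, -0.15 to 0.24 for COPS2 ENSSSCT00000005137 and -0.016 to 0.27 for COPS8 ENSSSCT00000017776.

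The correlation of COPS5 with COPS6 was 0.049 centred within groups, 0.065 without the 2 farthest libraries and -0.19 to 0.12 with a library left out. That of COPS5 with COPS7A was -0.86 and -0.94 to -0.87 in the latter cases.

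Libraries sharing a number across groups had correlations of -0.14 to 0.35. These values are not comparable with the highest library correlation given above, which was on log2(FPKM + 1). Only number 3 had its highest correlation with the library of the same number (0.35). The labels do not say if a number marks a shared batch, and these correlations cannot decide it. Under the replicate block, genes had 0 calls and the COPS7B share an exact p of 0.688. At this depth and spread, a log2 fold of 1 was mostly missed in simulation.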
